A study of Mus musculus with 12 samples.

Results

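Transcripts of 9 chemokine system genes were measured in sorted mouse acute myeloid leukaemia cells. They comprised the ligand genes Ccl3, Ccl6, Ccl9 and Ccl17 and the receptor genes Ccr1, Ccr2, Cx3cr1, Cxcr2 and Cxcr4. The rows were picked by gene symbol from deposited tables of 33531 symbols, and all 9 symbols were present. The cells were CMM-tetON-shStat3, an inv(16) leukaemia line that expresses GFP and mCherry and holds a hairpin RNA against Stat3 under a doxycycline-switched promoter. They were grown in NSG mice, which lack T, B and NK cells, and treatment began when about 1% of blood cells were leukaemic. Mice received the TLR9-activating DNA oligonucleotide CpG1668 together with doxycycline (CpG1668+Dox), CpG1668, doxycycline (Dox), or PBS, given into a vein. The labels give the schedule once as 6 daily treatments and once as 3 treatments every other day. Cells positive for both fluorescent proteins were sorted from spleens harvested 1 day after dosing ended, and each group had 3 libraries. All 4 groups carried the hairpin, and no group received doxycycline without it, so effects of the hairpin and of doxycycline cannot be told apart. Whether the libraries of a group came from different animals is not stated, and p-values therefore measure the spread between libraries, which may be technical. Levels are given in RPKM (reads scaled to transcript length and library size), and changes are differences in log2(RPKM + 1).

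Chemokines are small secreted proteins that steer leucocytes along concentration gradients through receptors coupled to inhibitory G proteins. Ligands and receptors are not paired singly. Ccl3, Ccl6 and Ccl9 all act on Ccr1, and Ccl17 acts on Ccr4. In the marrow and spleen, Cxcr4 retains stem cells and immature myeloid cells near sources of Cxcl12, Cxcr2 promotes the release of neutrophils, Ccr2 the exit of monocytes, and Cx3cr1 marks monocyte and macrophage subsets.

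Ccl6 and Ccl9 are neighbouring genes whose transcripts were higher in each treated group than in PBS, and Ccl17 was not called in any comparison. Their promoters are shown to set these ligand genes side by side. Each sequence is the 300-base RefSeq window (GRCm38.p6, from 250 bases before the start to 50 after it, 5′ to 3′ on the gene's strand). Capitals in Ccl6 and Ccl9 mark the best-scoring stretch shared without gaps, 40 bases with 36 identical (90%). It covers bases 226 to 265 of the Ccl6 window at chr11:83593038-83593337 (minus strand), or -25 to 14 relative to the start. In Ccl9 it covers bases 260 to 299 of the window at chr11:83578587-83578886 (minus strand), or 9 to 48, wholly after the start. How often other windows share such a stretch was not tested. Capitals in Ccl17, at chr8:94810203-94810502 (plus strand), mark a match to the STAT motif TTCNNNGAA.
Ccl6: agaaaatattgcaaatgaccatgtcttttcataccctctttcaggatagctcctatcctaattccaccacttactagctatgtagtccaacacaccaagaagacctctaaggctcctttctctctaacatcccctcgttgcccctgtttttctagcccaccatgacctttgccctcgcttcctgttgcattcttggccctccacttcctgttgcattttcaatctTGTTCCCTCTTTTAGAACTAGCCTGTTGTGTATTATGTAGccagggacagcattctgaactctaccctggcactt
Ccl9: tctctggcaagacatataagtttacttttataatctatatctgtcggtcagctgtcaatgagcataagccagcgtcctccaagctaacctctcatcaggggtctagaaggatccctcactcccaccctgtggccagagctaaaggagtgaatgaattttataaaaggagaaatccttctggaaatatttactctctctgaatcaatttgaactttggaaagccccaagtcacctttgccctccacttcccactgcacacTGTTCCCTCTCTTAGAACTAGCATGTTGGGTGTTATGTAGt
Ccl17: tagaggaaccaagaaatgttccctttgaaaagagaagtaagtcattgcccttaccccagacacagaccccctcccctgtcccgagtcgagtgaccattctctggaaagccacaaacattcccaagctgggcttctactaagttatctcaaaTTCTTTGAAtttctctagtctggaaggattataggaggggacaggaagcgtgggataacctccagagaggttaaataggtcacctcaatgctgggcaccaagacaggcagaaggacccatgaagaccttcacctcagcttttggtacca
The STAT motif reads the same on both strands and was present in 8.3% of 32851 RefSeq promoter windows and in 1 of the 9 member windows, that of Ccl17. Searched on both strands, the IRF motif GAAANNGAAA (3.44% of windows), the NF-kappaB motif GGGANNTTCC (1.47%), the C/EBP motif TTGCNNAA (10.8%) and the PU.1 motif GAGGAAG (13.6%) were in 0 of the 9. A missing match says only that those letters are not in the window.

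Depth was estimated at 30500000 to 35000000 reads per library, so 3 reads on a transcript of 1 kb corresponded to 0.086 to 0.098 RPKM. The Stat3 transcript, the target of the hairpin, was not lower in the libraries labelled with doxycycline, at 19.4 ± 0.331 RPKM in CpG1668+Dox, 18.2 ± 0.483 in CpG1668, 18.9 ± 0.173 in Dox and 17.2 ± 0.576 in PBS (SD, n = 3 each). It was called higher than in PBS in CpG1668+Dox (0.16, adjusted p = 0.00675) and in Dox (0.13, adjusted p = 0.0439). Groups are therefore named as labelled. Of 12 leukaemia and progenitor genes, 7 passed the filter of a mean of at least 1 RPKM over the 12 libraries, among them Kit (mean 17.7 RPKM), Runx1 (29.1) and Cbfb (31.0). Cd34, a progenitor surface gene, averaged 0.211 RPKM over the 12 libraries, with 0.395 in CpG1668+Dox, 0.258 in CpG1668, 0.148 in Dox and 0.0404 in PBS. Cd93 averaged 2.68, 1.56, 1.32 and 0.390 RPKM in the same groups. Of the 7, 1 was called higher and 1 lower in CpG1668+Dox against PBS, 1 and 2 in CpG1668, and 1 and 0 in Dox. Over all genes the shares called higher were 9.13%, 3.06% and 3.95%, and those called lower 6.4%, 2.83% and 2.04%. All 9 pan-leucocyte genes passed the filter, with PBS means between 0.607 RPKM for Ptprc and 152 for Coro1a. The erythroid transcription factor gene Gata1 was at 104 RPKM in PBS, and the mast cell and basophil genes Fcer1a and Cpa3 were at 630 and 402.

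**Figure D1:**
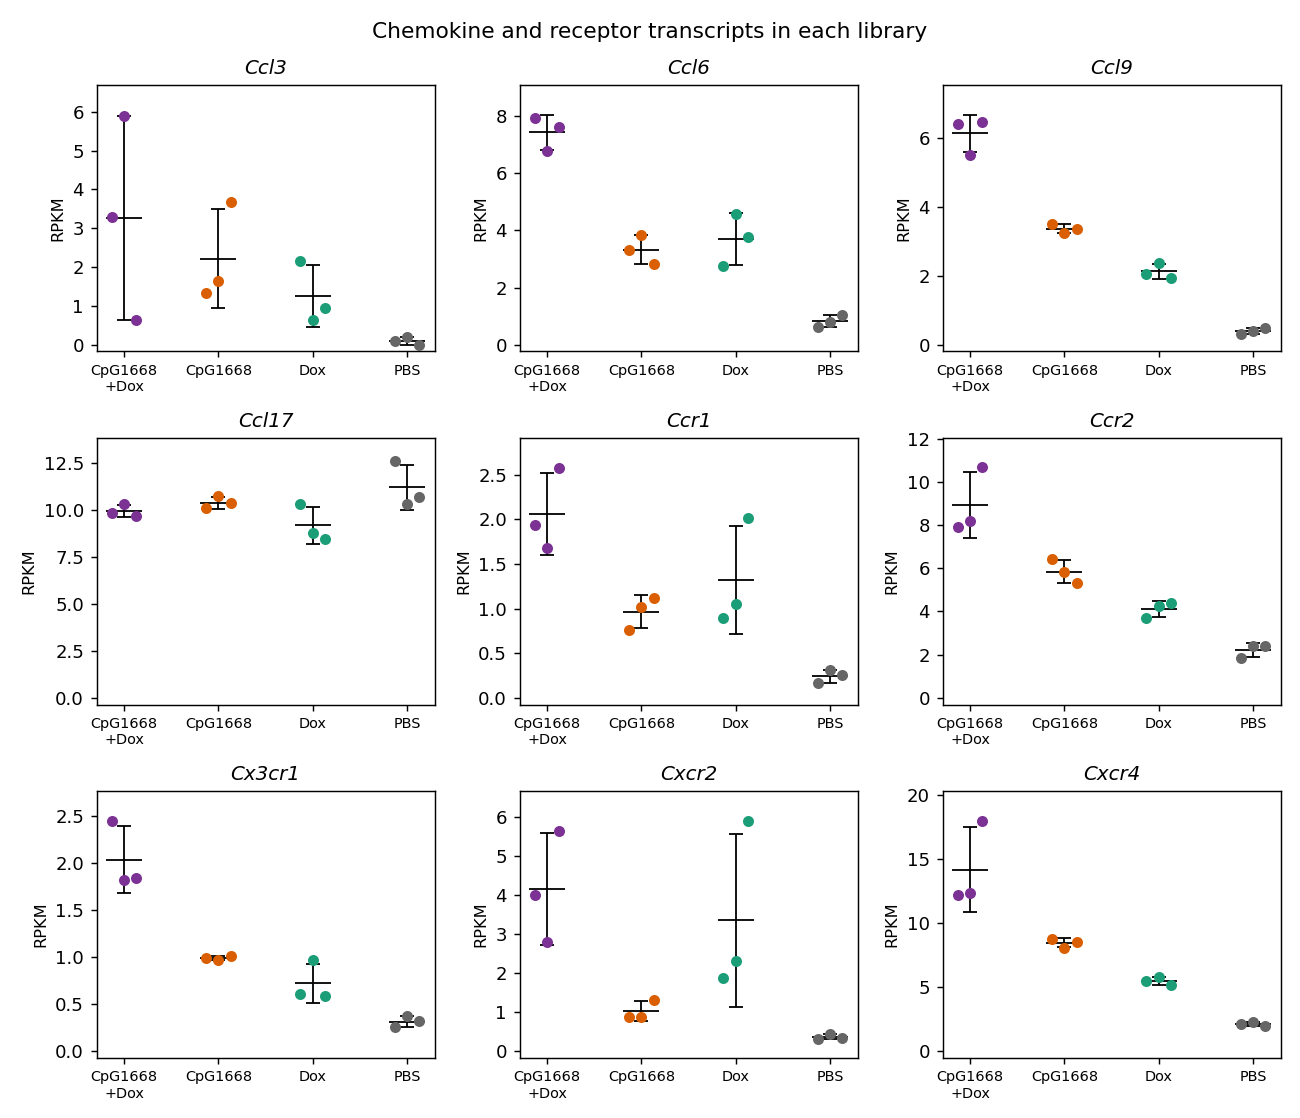
RPKM of each of the 9 genes (vertical axes, linear and scaled per gene) in the 12 libraries, by group. Points are libraries, horizontal bars are group means and error bars are SD (n = 3). For all genes but Ccl17 every treated library lies above the PBS libraries.

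Among the ligands, Ccl6 and Ccl9 were higher in all 3 treated groups than in PBS, and highest with both agents. Ccl6 encodes a myeloid chemokine of rodents and lies on chromosome 11 at 83587882 to 83593087 (GRCm38, GENCODE M21, minus strand). It measured 7.95, 6.77 and 7.61 RPKM in CpG1668+Dox, 3.33, 3.83 and 2.83 in CpG1668, 2.77, 4.57 and 3.76 in Dox, and 0.631, 0.799 and 1.03 in PBS. The CpG1668+Dox libraries lay above all others, the CpG1668 and Dox libraries overlapped, and the PBS libraries lay below all others. Relative to PBS, Ccl6 rose by 2.22 in CpG1668+Dox (adjusted p = 1.05e-06), by 1.25 in CpG1668 (adjusted p = 3.02e-04) and by 1.36 in Dox (adjusted p = 6.31e-04). As ratios of mean RPKM over PBS, CpG1668+Dox was 9.07-fold, CpG1668 4.05-fold and Dox 4.51-fold. Between the single agents Ccl6 differed by -0.11 (CpG1668 minus Dox, 95% interval -0.40 to 0.19, adjusted p = 0.779). The antisense gene E230016K23Rik overlaps Ccl6, and strand use in the counting is not given in the sources used here, so their reads cannot be told apart.

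Ccl9 encodes the chemokine also called MIP-1gamma and lies 9.25 kb from Ccl6, at 83572919 to 83578636 on the minus strand. Its levels were 6.41, 5.52 and 6.47 RPKM in CpG1668+Dox, 3.49, 3.23 and 3.36 in CpG1668, 2.05, 2.38 and 1.95 in Dox, and 0.322, 0.399 and 0.491 in PBS. The 4 groups did not overlap, in the order CpG1668+Dox, CpG1668, Dox, PBS. The changes against PBS were 2.34 in CpG1668+Dox (adjusted p = 1.64e-08), 1.64 in CpG1668 (adjusted p = 7.39e-07) and 1.15 in Dox (adjusted p = 5.17e-05). The ratios of means over PBS were 15.2 for CpG1668+Dox, 8.32 for CpG1668 and 5.27 for Dox. Ccl9 was also higher in CpG1668 than in Dox (0.48, adjusted p = 0.0103), a call that was lost without CpG1668 replicate 1 (adjusted p = 0.0615; range over all alternatives 0.00816 to 0.0615).

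Ccl3 encodes MIP-1alpha, an inflammatory chemokine, and lies 54.8 kb from Ccl6 at 83647844 to 83649355 (minus strand). Its libraries differed widely within the treated groups, at 3.29, 5.89 and 0.632 RPKM in CpG1668+Dox, 1.34, 1.63 and 3.69 in CpG1668, 2.16, 0.643 and 0.951 in Dox, and 0.0799, 0.204 and 0 in PBS. The treated groups overlapped one another, and all 9 treated libraries lay above the PBS libraries. With a single annotated transcript, its values came to whole reads at the estimated depth, namely 85, 153 and 15 in CpG1668+Dox and 2, 5 and 0 in PBS. The summed 253 reads in CpG1668+Dox and 7 in PBS gave a depth-adjusted ratio of 35.0 (exact 95% interval 16.7 to 88.0, counting error only, with reads not independent molecules). Against PBS, Ccl3 was called higher in CpG1668+Dox (1.74, adjusted p = 0.0221), but not in CpG1668 (1.49, adjusted p = 0.0785) or Dox (0.99, adjusted p = 0.244). The CpG1668+Dox call was lost without CpG1668+Dox replicate 1 or 2 or any PBS library (adjusted p up to 0.0731; range over all alternatives 0.00126 to 0.0731). It was also lost without the filter and when only these groups were fitted (adjusted p up to 0.0725). The CpG1668 change was called without CpG1668+Dox replicate 2 or replicate 3 (adjusted p down to 0.0165; range over all alternatives 0.0145 to 0.235). A pseudocount of 0.1 or a fit of only the groups compared also made it a call (adjusted p down to 0.0145). With a pseudocount of 0.1 the Dox change was a call too (adjusted p = 0.0458; range over all alternatives 0.0458 to 0.478).

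Ccl17 encodes TARC, a chemokine that attracts Ccr4-bearing T cells, and lies on chromosome 8 at 94810453 to 94812036 (plus strand). It had the highest PBS level of the 9, with 9.80, 10.3 and 9.68 RPKM in CpG1668+Dox, 10.1, 10.7 and 10.3 in CpG1668, 10.3, 8.75 and 8.45 in Dox, and 12.6, 10.3 and 10.7 in PBS. The CpG1668+Dox and the Dox libraries lay below the lowest PBS library by small margins, and the CpG1668 libraries overlapped PBS. Its changes were -0.15 in CpG1668+Dox (95% interval -0.32 to 0.01, adjusted p = 0.193), -0.10 in CpG1668 (-0.26 to 0.07, adjusted p = 0.519) and -0.26 in Dox (-0.43 to -0.10, adjusted p = 0.0664). Without Dox replicate 1 the last became a call, at -0.34 (adjusted p = 0.016; range over all alternatives 0.016 to 0.215), and median-of-ratios scaling also made it one. The transcript of its receptor, Ccr4, had a mean of at most 0.0306 RPKM in any group, under the level of 3 reads per kb.

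Among the receptor genes of the 9, Cxcr4 and Ccr2 had the highest means in each treated group. Both were higher in every treated group than in PBS. Cxcr4, the receptor for Cxcl12, lies on chromosome 1 at 128588199 to 128592293 (minus strand). Its levels were 12.2, 12.4 and 18.0 RPKM in CpG1668+Dox, 8.77, 8.08 and 8.55 in CpG1668, 5.50, 5.77 and 5.13 in Dox, and 2.06, 2.28 and 1.96 in PBS. The 4 groups were separate, in the same order as for Ccl9. The changes against PBS were 2.27 in CpG1668+Dox (adjusted p = 4.02e-07), 1.61 in CpG1668 (adjusted p = 1.74e-05) and 1.06 in Dox (adjusted p = 9.68e-04). As ratios of means over PBS, these were 6.75 for CpG1668+Dox, 4.03 for CpG1668 and 2.60 for Dox. Cxcr4 was higher in CpG1668 than in Dox by 0.55 (adjusted p = 0.0385). This call was lost when any 1 CpG1668, Dox or PBS library was left out (adjusted p up to 0.142; range over all alternatives 0.00253 to 0.142).

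Ccr2, the receptor through which Ccl2 and Ccl7 call monocytes out of the marrow, lies on chromosome 9 at 124101950 to 124113557 (plus strand). It measured 7.90, 8.20 and 10.7 RPKM in CpG1668+Dox, 6.41, 5.81 and 5.32 in CpG1668, 3.71, 4.24 and 4.40 in Dox, and 1.82, 2.41 and 2.39 in PBS. Its groups did not overlap either. Ccr2 rose by 1.63 in CpG1668+Dox (adjusted p = 2.27e-06), by 1.10 in CpG1668 (adjusted p = 1.93e-04) and by 0.68 in Dox (adjusted p = 0.00528) relative to PBS. Its mean was 4.05 times that of PBS in CpG1668+Dox, 2.65 times in CpG1668 and 1.87 times in Dox. Between the single agents the difference was 0.42 (CpG1668 minus Dox, adjusted p = 0.0883), which became a call without CpG1668+Dox replicate 3 (adjusted p = 0.0368; range over all alternatives 0.0368 to 0.251).

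Ccr1 and Cxcr2 had another order of group means, with Dox above CpG1668. Ccr1, the receptor shared by Ccl3, Ccl6 and Ccl9, lies 133 kb from Ccr2 on chromosome 9, at 123962124 to 123968692 (minus strand). It measured 1.93, 1.68 and 2.58 RPKM in CpG1668+Dox, 0.759, 1.01 and 1.12 in CpG1668, 0.894, 1.05 and 2.01 in Dox, and 0.162, 0.308 and 0.252 in PBS. Dox replicate 3 stood within the CpG1668+Dox values and the other Dox libraries within or beside those of CpG1668. In PBS the values corresponded to 15, 28 and 22 reads. The changes against PBS were 1.29 in CpG1668+Dox (adjusted p = 2.32e-04), 0.66 in CpG1668 (adjusted p = 0.0374) and 0.87 in Dox (adjusted p = 0.0101). The CpG1668 call was lost without any 1 of the CpG1668 or PBS libraries or without CpG1668+Dox replicate 1 (adjusted p up to 0.126; range over all alternatives 0.00644 to 0.328). It was also lost without the filter and with quantile normalization (adjusted p up to 0.328). The Dox call was lost without the filter and with quantile normalization (adjusted p up to 0.0923; range over all alternatives 0.00216 to 0.0923).

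Cxcr2, the receptor for Cxcl1 and Cxcl2 that draws neutrophils out of the marrow, lies on chromosome 1 at 74153989 to 74161246 (plus strand). Its levels were 3.98, 2.80 and 5.65 RPKM in CpG1668+Dox, 0.874, 0.874 and 1.31 in CpG1668, 1.86, 2.29 and 5.88 in Dox, and 0.311, 0.430 and 0.341 in PBS. The Dox libraries, with the single highest value of the 12 in replicate 3, overlapped CpG1668+Dox and lay above all CpG1668 libraries. Cxcr2 rose by 1.88 in CpG1668+Dox (adjusted p = 9.17e-04) and by 1.56 in Dox (adjusted p = 0.00878) relative to PBS, with ratios of means of 11.5 for CpG1668+Dox and 9.27 for Dox. In CpG1668 its change was 0.56 (95% interval -0.06 to 1.19, adjusted p = 0.294), a ratio of 2.83, which became a call when only these groups were fitted (adjusted p = 0.0254; range over all alternatives 0.0254 to 0.763). The Dox call was lost without the filter (adjusted p = 0.0515; range over all alternatives 0.00172 to 0.0515). The difference between the single agents was -0.999 (CpG1668 minus Dox, 95% interval -1.62 to -0.38) and did not pass over all genes (adjusted p = 0.111).

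Cx3cr1, the receptor for the membrane-bound chemokine Cx3cl1, was higher in each treated group than in PBS. It measured 2.45, 1.82 and 1.84 RPKM in CpG1668+Dox, 0.991, 0.965 and 1.01 in CpG1668, 0.604, 0.962 and 0.584 in Dox, and 0.251, 0.367 and 0.318 in PBS. The groups did not overlap, although the highest Dox library nearly met the lowest CpG1668 library. Relative to PBS the changes were 1.20 in CpG1668+Dox (adjusted p = 9.61e-06), 0.60 in CpG1668 (adjusted p = 0.00562) and 0.38 in Dox (adjusted p = 0.0491). The ratios of means over PBS were 6.52 for CpG1668+Dox, 3.17 for CpG1668 and 2.30 for Dox. The Dox call was lost when any library but CpG1668+Dox replicate 1 was left out (adjusted p up to 0.184; range over all alternatives 0.0159 to 0.987), and with quantile normalization the Dox change was -0.0050. It was also lost without the filter, when only these groups were fitted, and with the replicate number as a block. Quantile normalization also ended the CpG1668 call (adjusted p = 0.202; range over all alternatives 0.00171 to 0.202). Cx3cr1 spans 119901616 to 120069879 on chromosome 9 (minus strand) in GENCODE M21, where 9 other genes overlap it, and 120048683 to 120068296 in RefSeq, and which span was counted is not given in the sources used here.

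**Figure D2:**
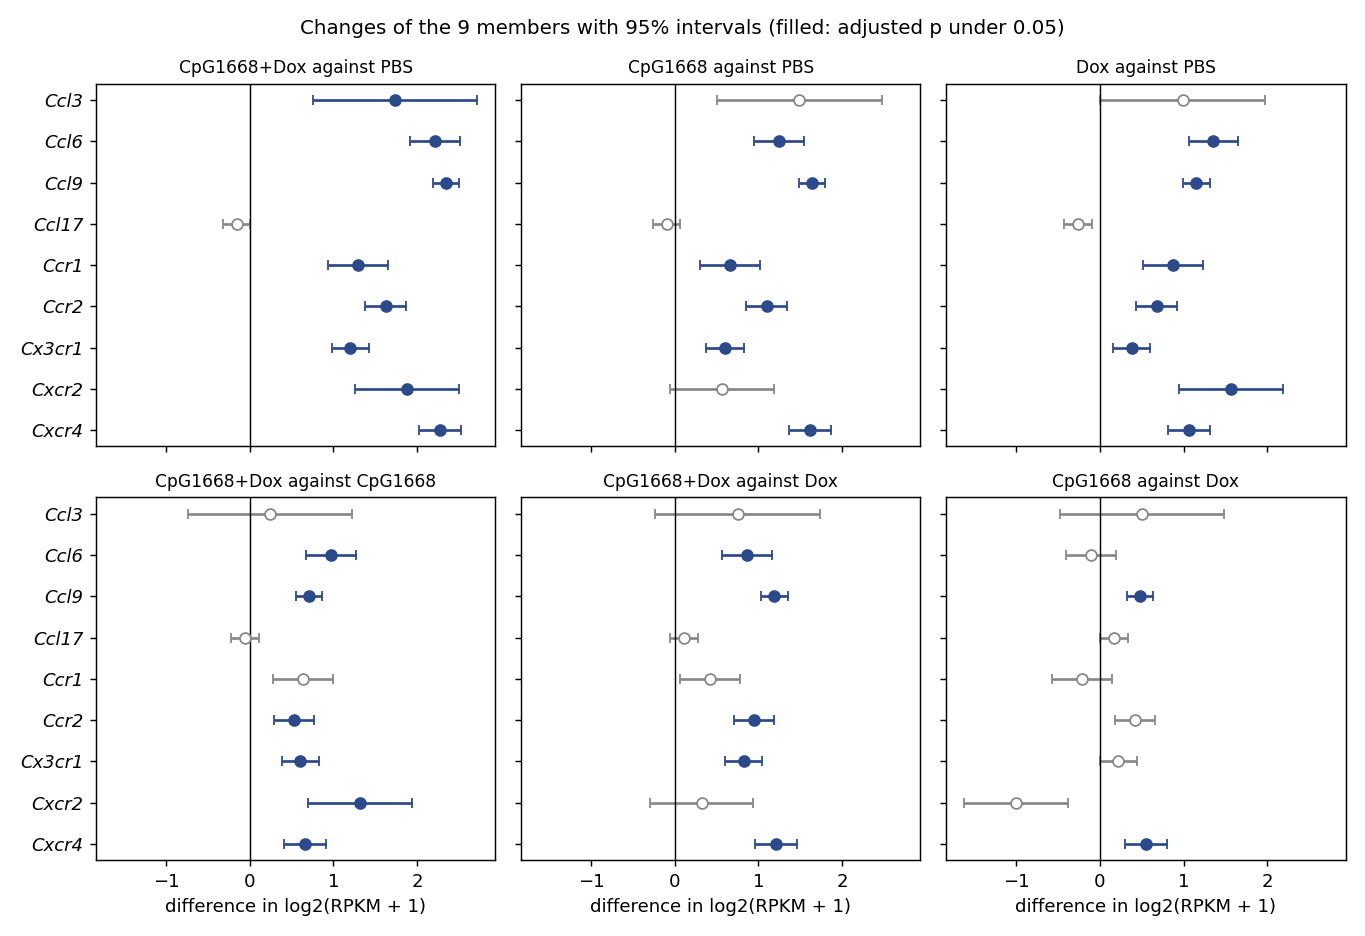
Differences in log2(RPKM + 1) (horizontal axes) of the 9 genes in 6 comparisons, with 95% intervals from limma. Filled points passed an adjusted p of 0.05 over 12167 genes, and Ccl17 has an open point in every panel.

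Counted over the 9 genes, 8 were called higher in CpG1668+Dox than in PBS, against 9.13% of all 12167 genes called higher, with Ccl17 not called. None of the 9 was called lower in any of the 6 comparisons. The shares of all genes called lower relative to PBS were 6.4% for CpG1668+Dox, 2.83% for CpG1668 and 2.04% for Dox. They were 0.197% for CpG1668+Dox relative to CpG1668, 0.666% for CpG1668+Dox relative to Dox and 1.21% for CpG1668 relative to Dox. In CpG1668 against PBS 6 were called higher, against 3.06% of all genes, with Ccl3, Ccl17 and Cxcr2 not called. In Dox against PBS 7 were called higher, against 3.95% of all genes, with Ccl3 and Ccl17 not called. The median of the 9 log2 changes against PBS was 1.74 in CpG1668+Dox, 1.10 in CpG1668 and 0.99 in Dox, and the median of all genes was 0.0028, -0.014 and 0.014 in these 3 comparisons. These 3 comparisons share the PBS libraries and are not independent of each other. For 6 of the 9 genes the PBS mean was under 1 RPKM and they passed the filter through the treated groups, so these counts describe the genes and support nothing beyond that. Of the 2 lowest means over the 12 libraries, both just inside the filter, 1.01 belonged to Cx3cr1 and 1.15 to Ccr1. Every CpG1668+Dox library lay above every PBS library for 8 of the 9 genes, as it did for 18.8% of all genes, and below for Ccl17, as for 16.6% of all genes. Every Dox library lay above every PBS library for 8, as for 15.2% of all genes, and below for Ccl17, as for 9.81%. Every CpG1668 library lay above every PBS library for 8, as for 11.3%. Every CpG1668+Dox library lay above every CpG1668 library for 7, as for 15.2% of all genes, and above every Dox library for 5, as for 8.84%. Every CpG1668 library lay above every Dox library for 4, as for 5.15%, and below for Cxcr2, as for 14.4%.

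Adding the second agent raised most of the 9 genes further. Relative to CpG1668, 6 were called higher in CpG1668+Dox, against 3.07% of all genes called higher. They were Ccl6 (0.97, adjusted p = 0.00582), Ccl9 (0.71, adjusted p = 0.00151), Ccr2 (0.53, adjusted p = 0.0263), Cx3cr1 (0.60, adjusted p = 0.00956), Cxcr2 (1.32, adjusted p = 0.0294) and Cxcr4 (0.66, adjusted p = 0.0109). Cxcr2 had the largest ratio of means, 4.06-fold, and Cxcr4, at 1.67-fold, and Ccr2, at 1.53-fold, the smallest of those called. Ccr1 differed by 0.64 (95% interval 0.28 to 0.99, adjusted p = 0.0615), Ccl3 by 0.25 (-0.73 to 1.23, adjusted p = 0.858) and Ccl17 by -0.06 (-0.22 to 0.11, adjusted p = 0.785). Leaving out any CpG1668 library or CpG1668+Dox replicate 3 ended the call of Ccr2 (adjusted p up to 0.0921; range over all alternatives 0.0258 to 0.0921), and these or CpG1668+Dox replicate 1 that of Cxcr2 (up to 0.123; 0.00595 to 0.123). Without CpG1668 replicate 2 the call of Cxcr4 was also lost (adjusted p = 0.0545), which left 3 calls of 9. The Cxcr4 call was lost in another alternative too (range over all alternatives 0.00774 to 0.0595). Ccr1 became a call without Dox replicate 1 or 3 (down to 0.0148; 0.0148 to 0.221).

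Relative to Dox, 5 were called higher in CpG1668+Dox, against 2.81% of all genes called higher. They were Ccl6 (0.86, adjusted p = 0.00389), Ccl9 (1.19, adjusted p = 1.25e-05), Ccr2 (0.95, adjusted p = 5.97e-04), Cx3cr1 (0.82, adjusted p = 7.68e-04) and Cxcr4 (1.21, adjusted p = 2.01e-04). The receptors whose Dox libraries overlapped CpG1668+Dox were not called, with Ccr1 at 0.42 (95% interval 0.06 to 0.78, adjusted p = 0.258) and Cxcr2 at 0.32 (-0.30 to 0.94, adjusted p = 0.731). Without Dox replicate 3, the library with the highest Ccr1 and Cxcr2 of its group, Ccr1 was called (adjusted p = 0.026; range over all alternatives 0.026 to 0.557). Between the single agents 2 of the 9, Ccl9 and Cxcr4, were called higher in CpG1668 than in Dox, against 0.353% of all genes called higher. That count was 0 without CpG1668 replicate 1 and 1 without any other single CpG1668, Dox or PBS library.

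The interaction, which asks whether the combined change differs from the sum of the single changes on the log2 scale, was called for 0 of the 9 genes by limma, and for 0 of 12167 genes (0% of all genes). At an unadjusted p under 0.05 there were 2 of the 9 and 812 of all genes. Ccl9 had -0.45 (unadjusted p = 0.00102, adjusted p = 0.419) and Cxcr4 -0.40 (unadjusted p = 0.0299, adjusted p = 0.723). The Ccl9 value depended on the scale and the normalization, at -1.31 with a pseudocount of 0.1 and -0.19 with quantile normalization. The interval was widest for Ccl3, whose interaction of -0.74 had a 95% interval of -2.13 to 0.65, and for Cxcr2, at -0.24 (-1.12 to 0.63). The Ccl3 value was -1.20 without CpG1668+Dox replicate 2, -0.16 without replicate 3 and -2.56 with a pseudocount of 0.1.

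The remaining ligand genes were low. Of 34 other chemokine ligand genes 27 were listed in the files, 0 had a mean of at least 1 RPKM over the 12 libraries, and 16 were under 0.1 RPKM. Cxcl12, the ligand of Cxcr4, had at most 0.0064 RPKM as a group mean (CpG1668+Dox) and Cx3cl1, the ligand of Cx3cr1, at most 0.0027. Ccl2, a ligand of Ccr2, averaged 0.438 ± 0.342 RPKM in CpG1668+Dox, 0.438 ± 0.340 in CpG1668, 0.343 ± 0.190 in Dox and 0.0648 ± 0.0181 in PBS (SD, n = 3 each). It was not called in a fit without the filter (0.41 for CpG1668+Dox against PBS, adjusted p = 0.306).

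Ccl4, the neighbour of Ccl3 at a distance of 13.2 kb, and Cxcl2, a ligand of Cxcr2, varied between libraries much as Ccl3 did. Ccl4 measured 0.763, 1.12 and 0.147 RPKM in CpG1668+Dox, 0.341, 0.395 and 0.994 in CpG1668, 0.379, 0.0995 and 0.288 in Dox, and 0, 0.0473 and 0.0985 in PBS. Cxcl2 measured 0.974, 2.30 and 0.125 RPKM in CpG1668+Dox, 0.217, 0.196 and 0.786 in CpG1668, 1.68, 0.175 and 0.858 in Dox, and 0, 0.0151 and 0.0314 in PBS. In CpG1668+Dox all 3 genes were highest in replicate 2 and lowest in replicate 3, in CpG1668 highest in replicate 3, and in Dox highest in replicate 1 and lowest in replicate 2. Neither Ccl4 (0.63, adjusted p = 0.147) nor Cxcl2 (0.94, adjusted p = 0.237) was called in CpG1668+Dox against PBS without the filter.

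**Figure D3:**
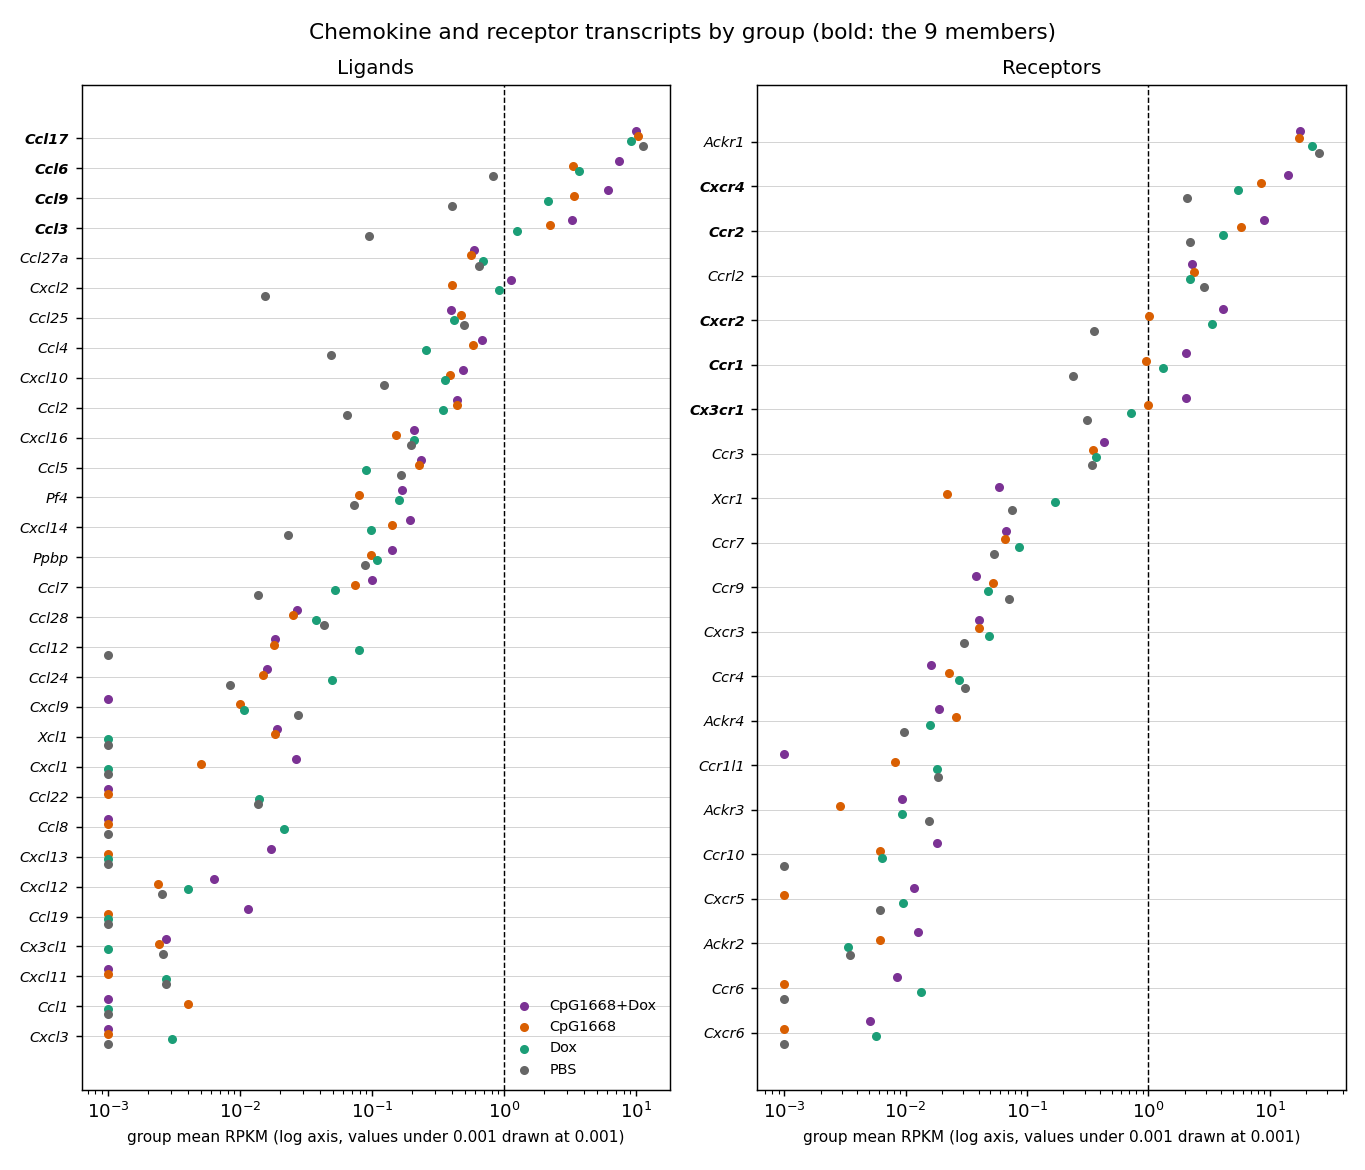
Mean RPKM per group (horizontal axes, log scale, values under 0.001 drawn at 0.001) of ligand and receptor genes listed in the files, sorted by their mean over 12 libraries. Bold names are the 9 genes described here, the dashed line is the filter at 1 RPKM, and the receptors not among the 9 that lie right of it are Ackr1 and Ccrl2.

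Of 19 other chemokine receptor genes 17 were listed, 2 passed the filter and 13 were under 0.1 RPKM. Ackr1, an atypical receptor of erythroid and endothelial cells that binds chemokines without signalling through G proteins, was lower after CpG1668, with 18.0 ± 1.58 RPKM in CpG1668+Dox, 17.5 ± 1.75 in CpG1668, 22.5 ± 1.78 in Dox and 25.4 ± 1.12 in PBS. It fell by 0.48 in CpG1668+Dox (adjusted p = 0.00184) and by 0.52 in CpG1668 (adjusted p = 0.00339) against PBS. Summed RPKM of 13 measured erythroid markers was 3920 to 6564 in CpG1668+Dox, 6775 to 11107 in CpG1668, 3944 to 8213 in Dox and 15306 to 20233 in PBS. Globin genes weighed most in this sum, with Hbb-bs at 5819 RPKM in PBS and 1367 in CpG1668+Dox. In the same groups Alas2 averaged 78.7 and 15.7, Gata1 104 and 89.8, and Klf1 49.0 and 47.4. The part of erythroid markers in the Ackr1 result was not tested. Ccrl2, an atypical receptor that binds chemerin, was not called. Ackr3, which also binds Cxcl12, had a group mean of at most 0.0155 RPKM.

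Several receptors for other chemoattractants were higher with both agents than in PBS. Of 8 tested genes of 13, 4 were called higher in CpG1668+Dox than in PBS, 0 in CpG1668 and 1 in Dox, and 0 were called lower in any of these. Of all genes, 9.13%, 3.06% and 3.95% were called higher in the same comparisons. C5ar1, Fpr1 and Fpr2 had PBS means under 1 RPKM and passed the filter through the treated groups, so the counts describe the list only. The complement receptor gene C5ar1 rose by 1.50 in CpG1668+Dox (adjusted p = 4.88e-05) and by 0.91 in Dox (adjusted p = 0.00649). The formyl peptide receptor genes Fpr1 (1.57, adjusted p = 0.00241) and Fpr2 (1.85, adjusted p = 0.0042) and the leukotriene receptor gene Ltb4r1 (1.18, adjusted p = 2.52e-04) completed the group called in CpG1668+Dox. The median log2 change over the 8 was 0.61 in CpG1668+Dox, 0.37 in CpG1668 and 0.34 in Dox.

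Genes of signalling below chemokine receptors were all expressed, and many rose modestly with both agents. Of 33 tested, 17 were called higher and 1 lower in CpG1668+Dox against PBS, 5 and 1 in CpG1668, and 6 and 0 in Dox. Over all genes the shares called higher were 9.13%, 3.06% and 3.95% and those called lower 6.4%, 2.83% and 2.04%. Fgr and Pik3r5 passed the filter with PBS means under 1 RPKM. The median log2 change was 0.15 in CpG1668+Dox, 0.017 in CpG1668 and 0.081 in Dox. Among the largest moderated statistics in CpG1668+Dox were those of the Src family kinase gene Fgr (1.82, adjusted p = 5.86e-06), of Pik3r5, a regulatory subunit of PI3K-gamma (0.93, adjusted p = 6.12e-06), and of Rgs2, a G protein regulator (1.35, adjusted p = 4.56e-05). The gene called lower was the beta-arrestin gene Arrb1, which fell by 0.31 (adjusted p = 7.15e-04).

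Among 13 genes of chemokine processing and binding partners 11 were tested. In CpG1668+Dox against PBS 6 were called higher and 1 lower, in CpG1668 4 and 1, and in Dox 6 and 0, beside the same shares of all genes as for the signalling list. Mmp8 and Mmp9 passed the filter with PBS means under 1 RPKM. The granule protease genes Ctsg and Elane, whose products trim several chemokines, changed most, with Ctsg at 46.9 ± 16.0 RPKM in CpG1668+Dox, 27.6 ± 0.862 in CpG1668, 9.37 ± 4.10 in Dox and 1.16 ± 0.168 in PBS. The gelatinase gene Mmp9 rose by 2.41 (adjusted p = 3.30e-04) and the collagenase gene Mmp8 by 2.56 (adjusted p = 3.70e-05) in CpG1668+Dox, and both also belong to the late neutrophil markers used below. Cd74, a receptor component for the chemokine-like protein Mif, was at 22.1 ± 6.22 RPKM in Dox, against 9.25 ± 2.96 in PBS (1.17, adjusted p = 0.0112), and was lower in CpG1668, at 7.54 ± 1.26 RPKM, than in Dox (-1.41, adjusted p = 0.0134).

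Marker genes of several cell types moved with the receptors. For the counts called higher that follow, the shares over all genes were 9.13% in CpG1668+Dox, 3.06% in CpG1668 and 3.95% in Dox against PBS. Of 14 late neutrophil markers tested, 14 were called higher in CpG1668+Dox against PBS, 11 in CpG1668 and 14 in Dox, where 3 of the 14 had PBS means under 1 RPKM. Their summed RPKM was 1972 to 4921 in CpG1668+Dox, 749 to 967 in CpG1668, 664 to 2462 in Dox and 124 to 252 in PBS, and Ly6g, a defining surface gene, averaged 8.38 RPKM in CpG1668+Dox, 1.86 in CpG1668, 4.38 in Dox and 0.547 in PBS. S100a9 and S100a8 weighed most in the neutrophil sum, with means of 596 and 325 RPKM over the 12 libraries. Within all 4 groups Ccr1 ordered the 3 libraries as that sum did. Cxcr2 did so in CpG1668+Dox, Dox and PBS, and in CpG1668 its replicates 1 and 2 were equal to 3 digits and replicate 3 was highest, as in the sum. In Dox, for example, the sum was 664, 1457 and 2462 and Cxcr2 1.86, 2.29 and 5.88 RPKM in replicates 1, 2 and 3. The other members had this order in at most 2 of the 4 groups. In a bulk sample, fewer cells of a type and less RNA per cell cannot be told apart, and the part of neutrophil-type cells in these results was not tested.

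**Figure D4:**
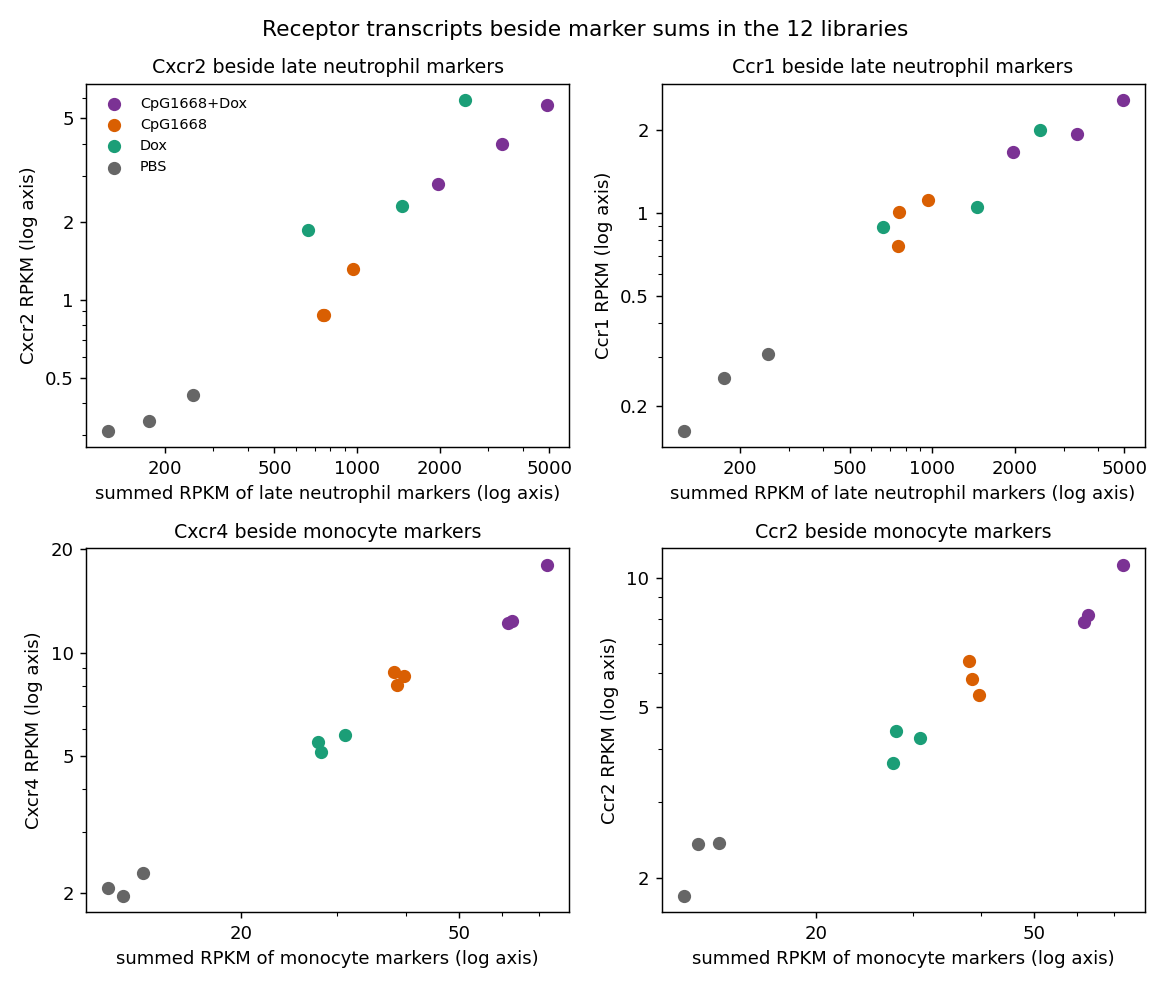
RPKM of 4 receptor genes (vertical axes, log scale) beside the summed RPKM of late neutrophil or monocyte markers (horizontal axes, log scale) in the 12 libraries, coloured by group. Cxcr2 and Ccr1 are highest within each group in the library with the highest neutrophil sum, while for Cxcr4 and Ccr2 the 4 groups lie apart on both axes.

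All 9 monocyte markers tested were called higher in each treated group against PBS. Of these, 5 (F13a1, Fcgr1, Klf4, Irf8 and Ly86) had PBS means under 1 RPKM and passed the filter through the treated groups, so the count describes the list only. Their summed RPKM, over 12 listed genes, was 61.6 to 72.5 in CpG1668+Dox, 38.0 to 39.6 in CpG1668, 27.6 to 30.9 in Dox and 11.4 to 13.3 in PBS. This is the order of group means of Cxcr4, Ccr2, Ccl9 and Cx3cr1, and also of Ccl3, whose treated groups overlapped. The part of monocyte-type cells in those levels was not tested. Splenic macrophage markers summed to 45.8 to 67.7 RPKM in CpG1668+Dox, 37.1 to 50.6 in CpG1668, 35.6 to 43.0 in Dox and 24.0 to 37.8 in PBS, with 2 of 10 tested called higher in each treated group. Of the 10, Vcam1 and Adgre1 had PBS means under 1 RPKM and passed the filter through the treated groups. Markers of T and NK cells had 0 of 2 tested genes called in these comparisons. The 2 were Nkg7 and Gzmb, with means of 15.4 and 11.2 RPKM over the 12 libraries, while 7 of the 10 listed genes, Cd3e among them at 0.0038, were under 0.1 RPKM.

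Pan-leucocyte genes also moved in the direction of the members. Of 9 tested, 8 were called higher in CpG1668+Dox against PBS, 6 in CpG1668 and 5 in Dox, with median log2 changes of 1.61, 0.79 and 0.69, and Ptprc and Itgam passed the filter with PBS means under 1 RPKM. Their summed RPKM was 403 to 465 in CpG1668+Dox, 353 to 380 in CpG1668, 348 to 397 in Dox and 320 to 334 in PBS. Of the B and plasma cell markers Ighm, an immunoglobulin heavy chain gene, was the 1 tested, and its PBS mean was also under 1 RPKM. It averaged 6.64 RPKM in CpG1668+Dox, 3.22 in CpG1668, 1.99 in Dox and 0.461 in PBS and was called higher in each treated group. Among 13 erythroid markers tested, 11 were called lower in CpG1668+Dox, 4 in CpG1668 and 7 in Dox against PBS. Of all genes, 6.4%, 2.83% and 2.04% were called lower in these comparisons. Of 7 mast cell and basophil markers tested, 3 were called higher in CpG1668+Dox and 0 in CpG1668 or Dox. Mcpt8, Prss34 and Cma1, 3 of the 7, had PBS means under 1 RPKM and passed the filter through the treated groups. Of 2 eosinophil markers tested, Ear2 was called higher in each treated group. The other, Siglecf, averaged 21.0 RPKM in CpG1668+Dox, 20.6 in CpG1668, 18.3 in Dox and 21.4 in PBS and was not called. Of 2 dendritic cell markers tested, H2-Ab1 was called higher in Dox and Bst2 was not called. Below the filter, the dendritic cell gene Zbtb46 was lower in Dox than in PBS (0.307 and 0.924 RPKM) and Itgax higher (1.01 and 0.478). The part of these marker lists in the members' levels was not tested.

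The genes most alike in level to each of the 9 over the 12 libraries were ranked by Pearson r among 6605 genes with a mean of at least 5 RPKM, as a description of points that fall into 4 groups. For Ccl9, Ccr2 and Cxcr4 the first was F13a1, a coagulation factor gene of monocytes and 1 of the monocyte markers above (r = 0.995, 0.991 and 0.993). F13a1 measured 10.2, 10.7 and 13.5 RPKM in CpG1668+Dox, 5.60, 5.57 and 5.53 in CpG1668, 2.65, 3.21 and 3.10 in Dox, and 0.377, 0.574 and 0.671 in PBS. For Ccr1 the first was Lcn2 (0.989) and for Cxcr2 Retnlg (0.980), both from the neutrophil list. Ccl6 was nearest to the integrin gene Itgam (0.981) and Cx3cr1 to the lysosomal gene Cd68 (0.975). Ccl17 had its highest values with Sart1 (0.894), a splicing factor gene.

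For Ccl3 the nearest were Rpl38 (0.928), Fos (0.918) and Nfkbia (0.910), the last encoding the NF-kappaB inhibitor. Fos, an immediate-early transcription factor gene, measured 17.2, 23.8 and 4.53 RPKM in CpG1668+Dox, 6.16, 5.74 and 11.6 in CpG1668, 25.2, 4.23 and 6.41 in Dox, and 1.98, 1.94 and 2.31 in PBS. The libraries with high Fos within the treated groups were those with high Ccl3, Ccl4 and Cxcl2. Fos is also known to respond to tissue handling, and the part of handling in the Ccl3 result was not tested.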

How the data were processed

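The deposited files held RPKM values per gene symbol, made by the authors. Per the submitters' processing notes, STAR 2.7.9, Partek 7.18.0723 and build mm10 were used, with roles not stated. No source used here gives the annotation or counting settings. Positions came from GENCODE M21 (GRCm38), where 32391 of 33531 symbols were matched.

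The 9 genes, the other gene lists and the tests were chosen with earlier results of these data known. Genes with a mean of at least 1 RPKM over 12 libraries (12167) were kept. log2(RPKM + 1), which understates changes of low genes, entered limma 3.58.1 (R 4.3.3) with 4 group means and an intensity trend. P-values were adjusted by Benjamini-Hochberg over 12167 genes per comparison, and adjusted p below 0.05 was a call. No 2 files were identical (0 pairs).

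Depth came from the step of 1 read in genes with a single annotated transcript, where 72.2% to 73.4% of values lay within 0.05 of a whole read. Other genes gave no whole reads, so no count test was run.

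Named genes are the 9 and Stat3, every called gene of another list where at most 5 were called, otherwise up to 4 per direction with the largest moderated statistic, and ligands or receptors of the 9 below the filter. Some genes that this rule takes are not reported here. The most similar genes are those with the highest Pearson r. The fit was tested on simulated data.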

Additional observations from a re-analysis of the deposited data

How the results depend on the processing

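Each library was left out in turn, the replicate number was added as a block, each pair of groups was fitted alone, and the fit was repeated with median-of-ratios scaling, with quantile normalization, with a pseudocount of 0.1, with the filter removed or set at a mean of 5 RPKM, and with the intensity trend removed. Of 1209 refits of single log2 changes, 1129 kept direction and side of the threshold, 60 lost a call, 13 gained one and 7 changed sign. None of the 7 was called after the sign change. Of them only Cx3cr1 in Dox against PBS was called before, and that lost call is not among the 60. With the filter at 5 RPKM, which keeps Ccl17, Ccr2 and Cxcr4 of the 9, 2 genes were called in each comparison against PBS and in both of CpG1668+Dox against a single agent, and 1 in CpG1668 against Dox. Without a filter 4 were called in Dox against PBS and 1 in CpG1668 against Dox. The replicate block gave 1 call in CpG1668 against Dox, where Cxcr4 was lost, ended the Cx3cr1 call in Dox against PBS and made Ccr1 a call in CpG1668+Dox against CpG1668. Whether replicate numbers pair the libraries is not stated. Deviations from the group means of same-numbered libraries had correlations of -0.21 to 0.27, with 2 of 18 over 0.1. For libraries with other numbers these were -0.38 to 0.32, with 9 of 36 over 0.1. Deviations from a mean of 3 libraries are not independent, so these values cannot exclude a pairing. Leaving out 1 library gave 0 to 3 calls in CpG1668 against Dox, 3 to 7 in CpG1668+Dox against CpG1668, 5 to 6 in CpG1668+Dox against Dox, 7 to 8 in CpG1668+Dox, 5 to 7 in CpG1668 and 6 to 7 in Dox against PBS, and 0 in the interaction.

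Sign changes occurred for Cx3cr1 in the interaction with a pseudocount of 0.1 (-0.0066) and in Dox against PBS with quantile normalization (-0.0050, adjusted p = 0.987), for the Ccr1 (0.092) and Cxcr2 (0.11) interactions with quantile normalization, for the Cxcr2 interaction without Dox replicate 3 (0.14, down to -0.49 without replicate 1), for Ccl3 in CpG1668+Dox against CpG1668 without CpG1668+Dox replicate 2 (-0.21, up to 0.83 without replicate 3), and for Ccl6 in CpG1668 against Dox without Dox replicate 2 (0.024, down to -0.26 without replicate 1). The cause was not tested.

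Over all genes, quantile normalization moved the split of calls to 984 higher and 1356 lower in CpG1668+Dox against PBS (1111 and 779 otherwise) and to 328 and 309 in Dox against PBS (480 and 248). Calls per comparison, leaving out 1 library, ranged from 367 to 762 in CpG1668 against PBS (716), 313 to 774 in Dox against PBS (728), 133 to 459 in CpG1668+Dox against CpG1668 (397), 258 to 429 in CpG1668+Dox against Dox (423) and 33 to 236 in CpG1668 against Dox (190). Without a filter there were 434 in Dox against PBS, 658 in CpG1668+Dox against Dox, 102 in CpG1668 against Dox and 12 in the interaction (0). With the filter at 5 RPKM there were 1155, 455 and 382 against PBS for CpG1668+Dox, CpG1668 and Dox, and 185 and 180 for CpG1668+Dox against CpG1668 and Dox. Fitting only the groups compared gave 355 in Dox against PBS, 257 and 216 for CpG1668+Dox against CpG1668 and Dox, and 72 in CpG1668 against Dox, where the block gave 78.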
